A study of Mus musculus with 4 samples.

Results

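Metallothioneins and the enzymes of the antioxidant response were measured in liver of male and female mice that were microsomic (M) or controls (C). The group holds 10 genes, chosen by the gene name printed on the array: Mt1 and Mt2 (metallothioneins), Hmox1 and Nqo1 (haem and quinone detoxification), Gclc and Gclm (glutathione synthesis), Txnrd1 and Srxn1 (thiol repair), and Cat and Sod2 (removal of hydrogen peroxide and superoxide). They are measured by 12 probes, with 2 probes each for Hmox1 and Cat, out of 35577 genes that had a usable probe. All 12 probes were well above background on all 4 arrays and none carried an outlier or saturation flag, so every member entered every comparison.

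Microsomic mice are pups that weigh far less than others of their sex at birth without any genetic or dietary manipulation, and the study asked whether their liver RNA differs from that of littermates of normal weight. There are 4 groups with a single array each, which are control and microsomic females (CF and MF) and control and microsomic males (CM and MM). Per the labels, all were C57BL/6J mice at embryonic day 20 and the RNA came from the whole liver, whereas the methods of the study speak of newborn C57BL/6 N mice and of replicate experiments that were not analysed here. No treatment is named for any group, and the sources used here do not say whether RNA was taken from 1 animal per array or pooled. With 1 array per group there is no replicate error, so no p-value is given for a pair of arrays, and the number of arrays limits the precision of each value. All 4 arrays share a slide, on which M and C occupy different columns, so slide position and group cannot be told apart.

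As background, metallothioneins are small cysteine-rich proteins that bind zinc and copper, and their genes are switched on by metals through the transcription factor MTF1, by glucocorticoids and by inflammation. The liver around birth is known as a tissue with a large store of zinc-loaded metallothionein. Most of the other members are targets of NRF2, a transcription factor that KEAP1 holds in check until oxidants or electrophiles release it, after which it binds antioxidant response elements together with small MAF proteins.

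Values below are levels on a log2 scale, as the signal of the probe over the 75th percentile of its own array, and differences are between such levels of the same probe. A level of 0 is thus a signal equal to the 75th percentile, and the levels of different probes cannot be set against each other. A gene was counted as higher or lower when the difference passed 1.5-fold, which is 0.58 on the log2 scale. As a yardstick for the spread between identical spots, 146 probes printed in at least 8 spots above the 75th percentile gave an SD of 0.33 for a difference between single spots of MF and CF and of 0.36 for MM and CM. Each member probe has 1 spot per array, and this yardstick leaves out the spread between animals and any shift of a whole probe between arrays.

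The labelled tissue was checked against its markers, and 8 of 8 hepatocyte genes were well above background on each array, with a summed level of 4047 to 6025 times the 75th percentile. Markers of neighbouring organs also moved with the groups. Of 7 intestine genes, 7 were higher in MF than CF by a median of 4.38, with a summed level of 8.83 on CF, 86.5 on MF, 7.70 on CM and 32.5 on MM, and Cdx2 and Cdh17 were well above background on MF alone. In males 5 of them could be compared, of which Fabp2 was higher in MM than CM by 2.38 and made up nearly all of the sum on MM, while 2 were lower, Vil1 by -1.24 and Lgals4 by -0.83. Of 7 heart genes, 6 were lower in MF than CF, and the median over all 7 was -6.78. Their summed level was 114 on CF against 2.39 to 5.16 on the other arrays, and Myh6 was well above background on CF and CM alone. Macrophage genes had a summed level of 285 on MF against 122 to 124 elsewhere, and 7 of 10 were higher in MF than CF. Granulocyte genes summed to 1997 on MF and to 953 to 1297 elsewhere, and 7 of 8 were higher in MF than CF. Erythroid genes summed to 2781 on CF, 2027 on MF, 2367 on CM and 1465 on MM, lower in M in both sexes. Of these 9 genes, 2 were higher and 2 lower in females, with a median of -0.54. In males 0 were higher and 2 lower, with a median of -0.24. In males, 4 of 8 hepatocyte genes were lower in MM than CM and 1, Hnf4a, was higher by 1.01. The median of the list was -0.47, and its summed level was 4047 against 5810. The heart list had 4 of 7 genes lower in MM and 1 higher, Myl7 by 0.69. In the exocrine pancreas list 4 of 6 were lower and 1 higher, Cel by 1.62. The medians of these lists were -0.76 and -0.73, both from low summed levels (5.16 and 3.93 on CM). The part of these cells in the differences of the members was not tested, and in RNA of a whole organ fewer cells of a type and less RNA per cell cannot be told apart.

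**Figure D1:**
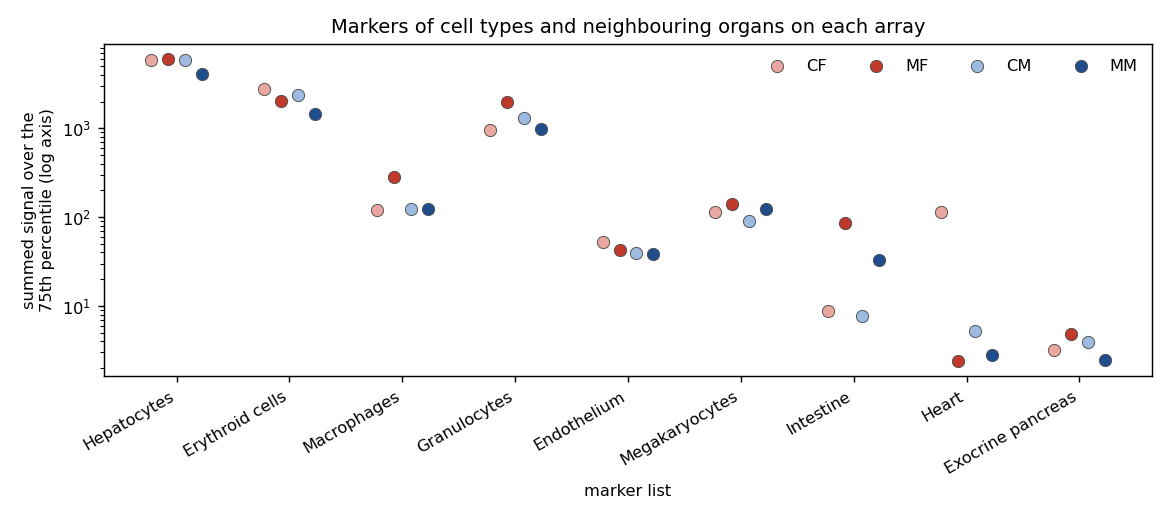
Summed signal of each marker list on the 4 arrays, in multiples of the 75th percentile of the array, on a log axis. Each point is 1 array. MF stands above the other arrays in the intestine list (86.5) and CF in the heart list (114), while the hepatocyte list lies between 4047 and 6025.

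In females, 2 of the 10 genes were higher in M than C and none was lower. Mt1 and Txnrd1 passed 1.5-fold. Over all 25538 genes compared, 40.9% passed 1.5-fold either way, 19.9% higher and 21.1% lower. The share of members that were higher was at the level of all genes, and the share past 1.5-fold either way was below it. The median difference of the members was 0.28, beside -0.04 for all genes, and 6 of 10 were positive. The same count was 0 of 10 after quantile normalization and 6 of 10 on the deposited values without scaling, so the female count depends on how the arrays are brought to a common scale. MF also stood apart in the intestine, macrophage and granulocyte markers and CF in the heart markers, and their part in these differences was not tested.

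In males, 6 of the 10 genes were higher in M than C and 2 were lower. Mt1, Mt2, Gclc, Gclm, Srxn1 and Cat were higher, and Hmox1 and Nqo1 were lower. Over all 26315 genes compared, 17.7% were higher, 23.1% lower and 40.8% past 1.5-fold either way. The median difference of the members was 0.61, beside 0 for all genes. The hepatocyte, heart and exocrine pancreas markers leaned lower in MM than CM, though 1 gene of each list was higher. The summed level of the erythroid markers was also lower. The part of these markers in the differences of the members was not tested. None of the 8 genes reached 2-fold. On the signal before detrending (a correction for position on the array, described with Mt1), 2 of the 10 members were higher and 0 lower. These were Gclm (0.73) and Sod2 (0.62), and Sod2 is not among the 8.

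Mt1 was the only member past 1.5-fold in the same direction in both sexes, beside 6.98% of the 23967 genes compared in both, of which 3.19% were higher in M. Between the sexes 7 members had differences of the same sign and 3 of opposite sign (Gclc, Txnrd1 and Srxn1), beside 55.1% of all genes with opposite signs. The difference between the sexes was not tested, as each sex has a single pair of arrays. Sod2 was the only member within 1.5-fold in both sexes.

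**Figure D2:**
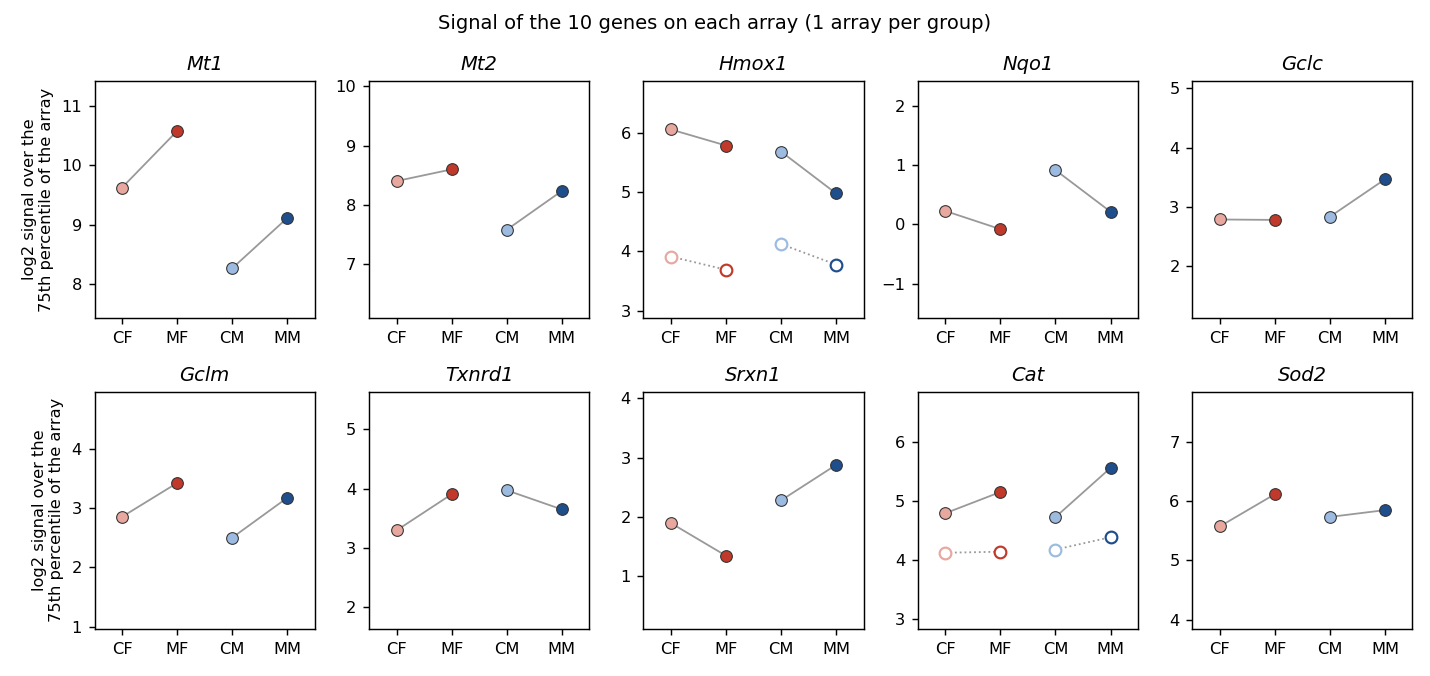
Level of each of the 10 genes on the 4 arrays, as log2 of the signal over the 75th percentile of the array. Filled points are the brightest probe of a gene, open points the other probe of Hmox1 and Cat, and lines join C to M within a sex. All panels span at least the same log2 height, and no error can be drawn with 1 array per group. Mt1 lies above its control in both sexes (10.58 against 9.62 and 9.11 against 8.26), and Srxn1 moves in opposite directions.

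Mt1, the main hepatic metallothionein together with Mt2, had a level of 9.62 on CF, 10.58 on MF, 8.26 on CM and 9.11 on MM. It was therefore highest on MF and lowest on CM, and each M array lay above the C array of its sex. The difference was 0.95 in females (1.94-fold) and 0.85 in males (1.80-fold). Over 7 other ways of processing the arrays it stayed positive in both sexes, from 0.30 to 1.36 in females and from 0.29 to 1.41 in males. The probe, A_66_P111660, lies at chr8:96704165-96704224 (mm9, plus strand). On MF, 5 of the 44 pixels of its spot were saturated, which did not set the saturation flag. A saturated pixel gives only a lower limit, so the MF level and the female difference may be understated.

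The Mt1 spot also received an unusually strong correction on MF. Feature Extraction divides each spot by a detrending factor fitted over the surface of the array, and this factor was 0.602 on CF, 0.509 on MF, 1.10 on CM and 0.757 on MM for Mt1. A factor of 0.509 was near the lowest of all spots on MF, where 0.337% of spots had one as low. Before the correction the Mt1 difference was 0.71 in females and 0.29 in males, so the male value did not pass 1.5-fold before detrending.

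Mt2, the neighbouring metallothionein gene, had a level of 8.40 on CF, 8.60 on MF, 7.58 on CM and 8.23 on MM. The order of the 4 arrays was that of Mt1, with MF highest, then CF, MM and CM, but the gap between MF and CF was within 1.5-fold. The difference was 0.20 in females and 0.65 in males (1.57-fold). In females it ranged from -0.53 after quantile normalization to 0.60 on the deposited values, so that its direction depends on the scaling, while in males it ranged from 0.48 to 1.21. The probe, A_51_P246317, lies at chr8:96697371-96697430 (mm9, plus strand). Without gaps, the 60-base probes of Mt1 and Mt2 match in at most 24 bases and share no run longer than 7 bases.

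Both metallothioneins were lower in males than females within each condition. Mt1 differed by -1.36 between CM and CF, more than any other member, and by -1.47 between MM and MF, where Srxn1 differed by 1.53. Mt2 differed by -0.82 and -0.37. Before detrending, the Mt1 difference between CM and CF was -0.52 and that of Mt2 was -0.96.

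The promoters of the metallothioneins and of 2 other members are shown because they hold matches to both kinds of motif or, for Mt1, form a pair with Mt2, and metal and antioxidant response elements are the sequences through which such genes are known to be controlled. RefSeq promoters (GRCm38.p6) were found for 8 of the 10 members, which leaves Hmox1 and Gclc, and the 250 bases before the start of the transcript were searched on both strands for the core of the metal response element, TGCNCNC, and for the antioxidant response element, as TGACNNNGC and, added after the values were seen, as TGAGNNNGC. Mt1 (chr8:94178839-94179088, plus strand) and Mt2 (chr8:94172368-94172617, plus strand) read as follows, 5′ to 3′, with every match in capitals.
Mt1: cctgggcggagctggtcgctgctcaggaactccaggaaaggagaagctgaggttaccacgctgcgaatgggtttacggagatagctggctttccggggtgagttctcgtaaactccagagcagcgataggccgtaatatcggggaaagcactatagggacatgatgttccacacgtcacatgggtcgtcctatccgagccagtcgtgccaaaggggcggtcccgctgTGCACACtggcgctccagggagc
Mt2: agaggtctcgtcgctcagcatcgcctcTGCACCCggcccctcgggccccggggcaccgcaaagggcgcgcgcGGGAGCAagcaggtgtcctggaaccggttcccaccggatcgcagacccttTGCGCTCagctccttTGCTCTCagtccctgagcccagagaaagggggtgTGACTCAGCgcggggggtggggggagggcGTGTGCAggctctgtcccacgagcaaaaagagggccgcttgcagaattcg
Mt2 holds 5 matches to TGCNCNC and 1 to TGACNNNGC, and Mt1 holds 1 match to TGCNCNC. Over 32851 RefSeq promoters, 44.4% hold at least 1 match to TGCNCNC and 4.65% at least 3, while 10.2% hold TGACNNNGC. These windows end at the start that RefSeq gives, and sequence beyond them was not searched. For Mt1 this start may lie upstream of the one in common use, and elements next to the latter would then fall outside the window, so the counts of Mt1 and Mt2 cannot be set against each other. Of the promoters not shown, Nqo1 holds 2 matches to TGCNCNC and none to either form of the antioxidant response element. Cat and Sod2 hold no match to any of the 3 motifs, and of the 3 windows of Txnrd1, 2 hold 1 match to TGCNCNC each and 1 holds 1 match to TGACNNNGC.

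Hmox1, which opens the haem ring and is the inducible form of haem oxygenase, had a level of 6.06 on CF, 5.79 on MF, 5.68 on CM and 4.98 on MM with its brightest probe. Both M arrays were below the C array of their sex, by -0.27 in females and -0.71 in males (1.63-fold lower). The other probe gave 3.91 on CF, 3.69 on MF, 4.12 on CM and 3.78 on MM, with differences of -0.22 and -0.35. The 2 probes thus shared the direction in both sexes, but the male difference passed 1.5-fold with the brightest probe alone. Before detrending the other probe alone passed it, with a male difference of -0.79, against -0.38 for the brightest. They lie at chr8:77624207-77624266 and chr8:77620797-77620856 (mm9, plus strand). In males the difference stayed negative over the 7 alternatives, from -0.78 to -0.15.

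Nqo1, a quinone reductase and a standard readout of NRF2, had a level near the 75th percentile: 0.23 on CF, -0.08 on MF, 0.92 on CM and 0.21 on MM. CM stood above the other 3 arrays, and the differences were -0.31 in females and -0.70 in males (1.63-fold lower). Before detrending the male difference was 0.43, and with normexp background correction and quantile normalization it was 0.39, so the direction in males is not settled. On CM the detrending factor of this spot was 0.573, against 1.28 to 1.47 on the other arrays. The probe lies at chr8:109912440-109912499 (mm9, minus strand).

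Gclc, the catalytic subunit of glutamate-cysteine ligase, which makes the first bond of glutathione, had a level of 2.79 on CF, 2.78 on MF, 2.84 on CM and 3.47 on MM. MM stood above the other 3 arrays, which lay close together. The difference was -0.01 in females and 0.63 in males (1.55-fold), and the male value ranged from 0.41 to 1.19 over the alternatives. The probe lies at chr9:77641296-77641355 (mm9, plus strand).

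Gclm, the modifier subunit of the same enzyme, had a level of 2.85 on CF, 3.42 on MF, 2.50 on CM and 3.17 on MM, so that both M arrays lay above both C arrays. The difference was 0.57 in females (1.48-fold) and 0.67 in males (1.60-fold). It was the only one of the 10 genes whose male difference passed 1.5-fold under each of the 7 alternatives, from 0.60 to 1.23, and in females it stayed positive, from 0.24 to 0.97. The probe spans 2636 bases at chr3:121962174-121964809 (mm9, plus strand), longer than its 60 bases, so it crosses at least 1 splice junction. Its promoter (chr3:122245307-122245556, GRCm38.p6, plus strand) holds 1 match to the antioxidant response element, on the minus strand, which appears here as GCACCGTCA and overlaps a match to TGCNCNC, and a further match to TGCNCNC.
Gclm: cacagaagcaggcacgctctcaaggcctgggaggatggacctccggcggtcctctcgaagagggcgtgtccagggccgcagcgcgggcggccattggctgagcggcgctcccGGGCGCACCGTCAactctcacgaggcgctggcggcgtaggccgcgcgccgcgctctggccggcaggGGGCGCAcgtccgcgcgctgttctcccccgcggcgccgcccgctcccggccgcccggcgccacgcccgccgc

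Txnrd1, the cytosolic thioredoxin reductase, had a level of 3.30 on CF, 3.91 on MF, 3.98 on CM and 3.65 on MM. CF was the lowest and CM the highest, with both M arrays in between. The difference was 0.61 in females (1.53-fold) and -0.32 in males. The female value stayed positive over the alternatives, from 0.43 to 1.02, while the male value ranged from -0.51 to 0.24. The probe lies at chr10:82360230-82360289 (mm9, plus strand).

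Srxn1, sulfiredoxin, which repairs overoxidised peroxiredoxins, had a level of 1.89 on CF, 1.34 on MF, 2.28 on CM and 2.88 on MM. MF was the lowest and MM the highest array, a gap of 1.53 between the microsomic sexes, against 0.38 between the control sexes. Before detrending these gaps were 2.16 and 1.49, so the small gap between the controls appears only after that step. The detrending factor of this spot was 0.612 on CF and 1.34 on CM. The difference was -0.55 in females (1.46-fold lower) and 0.60 in males (1.51-fold), and neither changed sign over the alternatives, from -0.56 to -0.15 and from 0.07 to 1.16. The probe lies at chr2:151937009-151937068 (mm9, plus strand). Its promoter (chr2:152105274-152105523, GRCm38.p6, plus strand) holds 2 matches to TGAGNNNGC, in capitals, which begin at -158 and -45 from the start, and 1 to TGCNCNC. Of all promoters, 14.4% hold at least 1 match to TGAGNNNGC.
Srxn1: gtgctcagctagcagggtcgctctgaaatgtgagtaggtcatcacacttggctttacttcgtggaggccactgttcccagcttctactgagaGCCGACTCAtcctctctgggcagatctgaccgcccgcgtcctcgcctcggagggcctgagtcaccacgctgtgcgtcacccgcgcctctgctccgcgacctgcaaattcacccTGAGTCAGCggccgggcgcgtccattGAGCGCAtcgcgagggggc

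Cat, the peroxisomal catalase, had a level of 4.79 on CF, 5.15 on MF, 4.73 on CM and 5.55 on MM with its brightest probe. Both M arrays lay above both C arrays, by 0.36 in females and 0.83 in males (1.78-fold). The other probe gave 4.12 on CF, 4.14 on MF, 4.18 on CM and 4.39 on MM, with differences of 0.02 and 0.21, so the male difference was past 1.5-fold with 1 of 2 probes. With the brightest probe it was -0.17 before detrending and -0.23 after normexp background correction with quantile normalization. The detrending factor of that spot was 0.581 on CF, 0.524 on MF, 1.12 on CM and 0.572 on MM. The brightest probe lies at chr2:103294487-103294546 and the other spans 3343 bases at chr2:103297086-103300428 (mm9, minus strand), across at least 1 splice junction.

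Sod2, the mitochondrial superoxide dismutase, had a level of 5.57 on CF, 6.11 on MF, 5.73 on CM and 5.85 on MM. Each M array was above the C array of its sex, by 0.54 in females (1.46-fold) and 0.11 in males, both within 1.5-fold. The female difference ranged from -0.09 after quantile normalization to 0.95 on the deposited values. The probe lies at chr17:13208074-13208133 (mm9, plus strand).

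**Figure D3:**
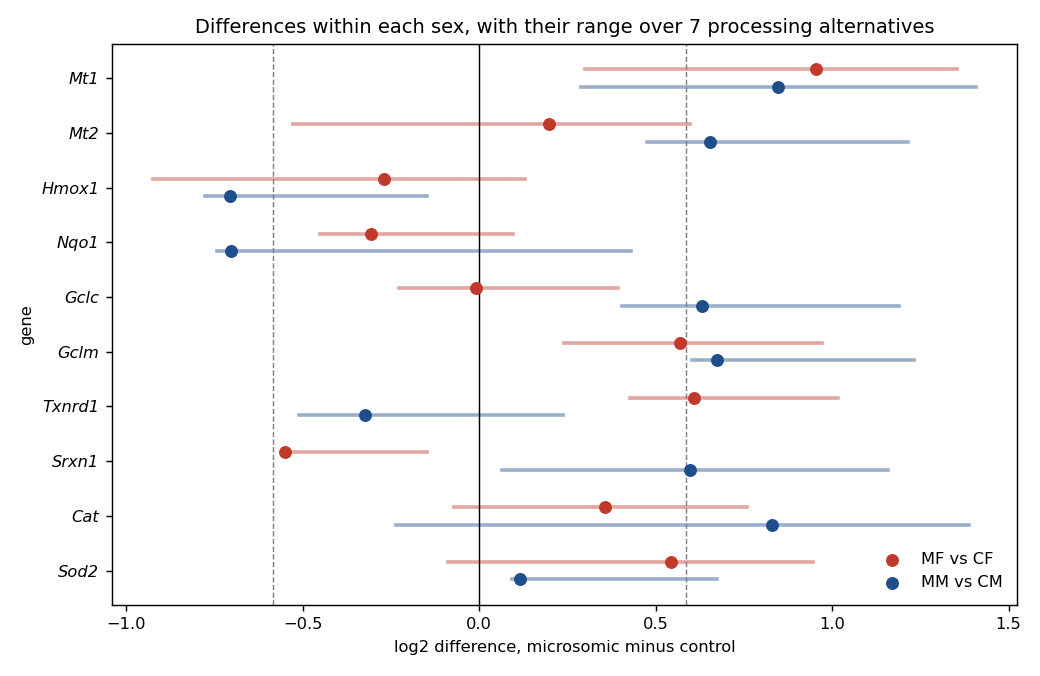
Log2 difference between microsomic and control for each of the 10 genes, in females (red) and males (blue). Points are the values of the main processing, bars run from the lowest to the highest of 7 processing alternatives and are not errors, and dashed lines mark 1.5-fold. The bars of Gclm in males lie wholly past the line, from 0.60 to 1.23, while those of Cat, Nqo1 and Txnrd1 in males cross 0.

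Placed side by side, the 12 probes show how far the male counts rest on the detrending step. Between the raw and corrected signals, Cat moved from -0.17 to 0.83 and Nqo1 from 0.43 to -0.70 in males, and Sod2 from 0.62 to 0.11. Gclm hardly moved, from 0.73 to 0.67. Across probes printed in several spots, detrending lowered the SD of a difference between single spots from 0.48 to 0.33 in MF vs CF and from 0.65 to 0.36 in MM vs CM. The male differences before detrending thus carried the larger spread between identical spots.

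**Figure D4:**
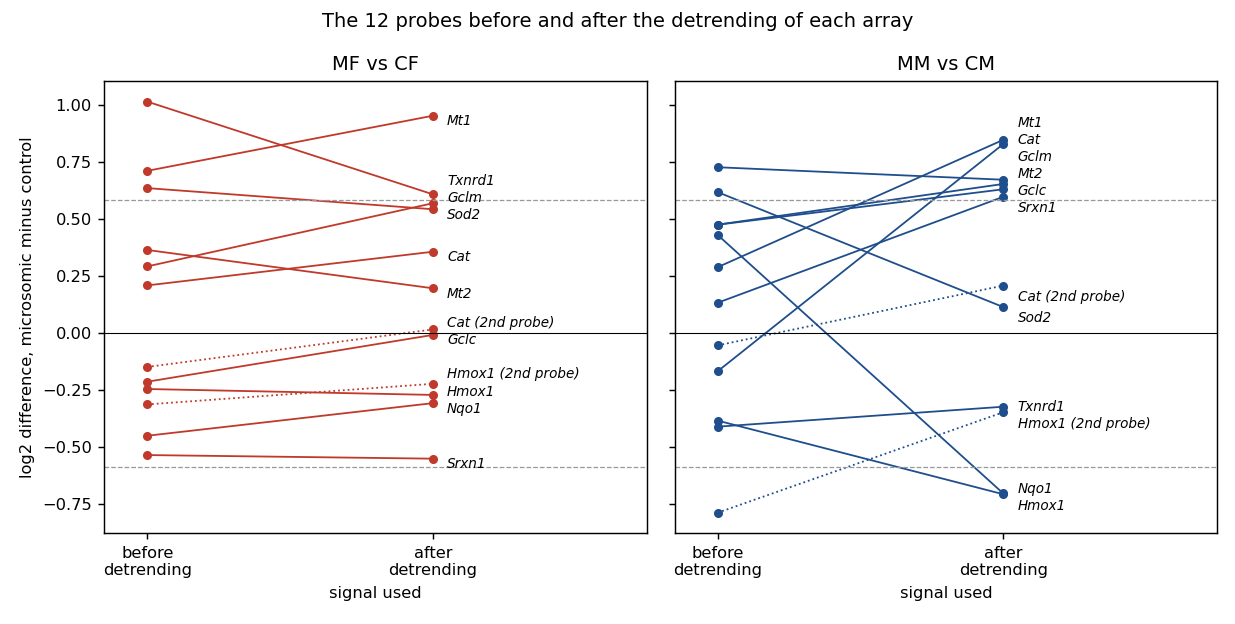
Log2 difference between microsomic and control for the 12 probes, from the background-subtracted signal before detrending (left end of each line) and from the processed signal after it (right end), in females and males. Dotted lines are the other probes of Hmox1 and Cat, and dashed lines mark 1.5-fold. In males the lines of Cat (-0.17 to 0.83) and Nqo1 (0.43 to -0.70) cross.

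A difference between M and C that both sexes share was tested with limma over 19303 genes, with sex as a second term, the sexes serving as replicates with 1 residual degree of freedom. No member passed, and no gene passed an adjusted p of 0.05 (0% of genes), while 853 genes (4.42%) had an unadjusted p under 0.05. Mt1 had the smallest p of the members, with a difference of 0.90 ± 0.41 (SE, limma), higher in M in both sexes, and an adjusted p of 0.995. Gclm had 0.62 ± 0.41 (SE) and Cat 0.59 ± 0.42 (SE), with the same adjusted p of 0.995 from limma. The 4 arrays therefore do not separate a shared difference of the members from the variation of the array, which does not show that there is none. For sex, Mt1 had a difference of -1.41 ± 0.41 (SE, males minus females) with an adjusted p of 0.398 in limma, with 9.36% of genes at an unadjusted p under 0.05.

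The sexes were also compared within each condition. Between CM and CF, 2 members were higher in males (Nqo1 and Txnrd1) and 2 lower (Mt1 and Mt2), beside 46.3% of genes past 1.5-fold, 26.6% higher and 19.7% lower. Between MM and MF, 2 were higher in males (Gclc and Srxn1) and 2 lower (Mt1 and Hmox1), beside 49.5% of genes, 28.9% higher and 20.5% lower. These shares of members are at the level of all genes. Nqo1 and Txnrd1 differed by 0.69 and 0.68 between the control sexes, and Hmox1 by -0.81 between the microsomic sexes with its brightest probe. Before detrending, the difference between CM and CF was -0.70 for Nqo1 and 1.34 for Txnrd1, so the direction of Nqo1 depends on that step. The other probe of Hmox1 gave 0.09 between MM and MF.

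The wider pathway was read from 9 lists with 84 genes that are not members, of which 81 had a usable probe and 80 could be compared. In females 25 were higher in M and 9 lower, with a median of 0.21, and in males 14 were higher and 13 lower, with a median of 0.17. That is 34 of 80 past 1.5-fold in females, beside 40.9% of all genes, and 27 of 80 in males, beside 40.8%. By direction, 19.9% of all genes were higher and 21.1% lower in females, with a median of -0.04. For males these shares were 17.7% and 23.1%, with a median of 0. In both sexes 5 of 80 were higher and 2 lower, beside 3.19% of genes higher and 6.98% past 1.5-fold the same way, while 6 passed it in opposite directions and 38 had opposite signs. The genes of glutathione synthesis and use leaned furthest in females: 10 of 19 were higher and 1 lower, with a median of 0.74, against 4 higher and 3 lower in males with a median of 0.31. After quantile normalization the female count over all lists was 18 higher and 15 lower, so the lean in females is also tied to the scaling. It stood beside the intestine, macrophage and granulocyte markers of MF and the heart markers of CF, and their part in it was not tested.

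Among the genes higher in both sexes, Gss, which completes glutathione synthesis after Gclc and Gclm, had a difference of 0.74 in females and 0.80 in males, which were 0.45 and 0.12 with normexp background correction and quantile normalization. Glrx3, a glutaredoxin, had 0.84 and 0.70. Of the glutathione transferases, Gsta4 had 1.03 and 0.68. Gsta1 was 7.78-fold higher in females, and in males, where it was not well above background on CM, it was higher by at least 4.15-fold. Gsta1 has close paralogs, which its probe may also bind, and its level was low, at -5.25 on CF, -2.29 on MF, -5.54 on CM and -2.63 on MM.

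Ephx1, the microsomal epoxide hydrolase, was the gene of the other NRF2 targets that was higher in both sexes. Its level was 3.99 on CF, 4.76 on MF, 3.63 on CM and 5.27 on MM, with differences of 0.77 and 1.64 (3.11-fold in males), which were 0.31 and 0.95 with the mean over its probes. The genes lower in both sexes were Gpx8, a peroxidase of the endoplasmic reticulum, with -0.92 and -0.68, and Mt3, the metallothionein best known from the brain, with -0.84 and -1.35. Mt3 ran at -2.22 on CF, -3.06 on MF, -1.28 on CM and -2.64 on MM and opposed the direction of Mt1 in both sexes. In males, Gpx8 was at -0.12 on the deposited values and Mt3 at -0.27 with normexp and quantile normalization, so that of the 7 genes Glrx3, Gsta1 and Gsta4 alone passed 1.5-fold in both sexes under each of the 7 processing alternatives.

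The largest differences outside these were single-sex or opposed. Gsr, which regenerates reduced glutathione, had a level of 4.34 on CF, 6.54 on MF, 4.24 on CM and 4.74 on MM, and so stood out on MF by 2.20 over CF (4.58-fold) and in males by 0.50. Gstp1, a glutathione transferase, had 1.91 in females and 0.31 in males. Maff, one of the small MAF partners of NRF2, had 2.17 and 0.54, the latter -0.02 with normexp and quantile normalization. Txnip, the inhibitor of thioredoxin that glucose is known to induce, was at 5.79 on CF, 8.19 on MF, 5.60 on CM and 4.17 on MM, so that the microsomic arrays held both the highest and the lowest level, with differences of 2.40 and -1.42. G6pc, the glucose-6-phosphatase of the glucocorticoid list, ran the same way with 1.37 in females and -3.52 in males (11.5-fold lower), but the female difference was 0.27 with normexp and quantile normalization.

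The other lists held smaller counts, to be read beside the shares of all genes. These were 19.9% higher and 21.1% lower in females, and 17.7% higher and 23.1% lower in males. Of 12 genes of the thioredoxin and peroxiredoxin system, 6 were higher in females and 1 in males, and 1 and 3 were lower. Of 9 genes of NRF2 control, 1 was higher in females and 3 in males (Nfe2l2, the gene of NRF2 itself, at -0.52 and 0.65, Mafg at 0.47 and 0.82, and Bach1 at -0.58 and 1.22), and 1 was lower in females (Cul3 at -0.59). NADPH supply had 3 of 6 higher in females and 0 in males, and the haem breakdown list 1 of 5 higher in females and 2 lower in males. The latter 2 were the ferritin chains Fth1 and Ftl1 (-0.67 and -0.61), in the direction of Hmox1 in males. In females they were at 0.44 and 0.38, within 1.5-fold and opposite to Hmox1 (-0.27). Of 8 metallothionein and metal genes other than Mt1 and Mt2, 0 were higher in females and 1 in males, the zinc importer Slc39a14 (0.95), and Mt3 was the 1 lower gene in each sex, while Mtf1 had -0.10 and 0.49. Of 9 glucocorticoid-responsive genes, 2 were higher and 2 lower in females and 3 and 3 in males. Of 3 superoxide dismutase genes, 1 was higher in females, and 1 was higher and 1 lower in males. Of 9 other NRF2 targets, 1 was higher and 3 lower in females and 1 was higher in males.

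**Figure D5:**
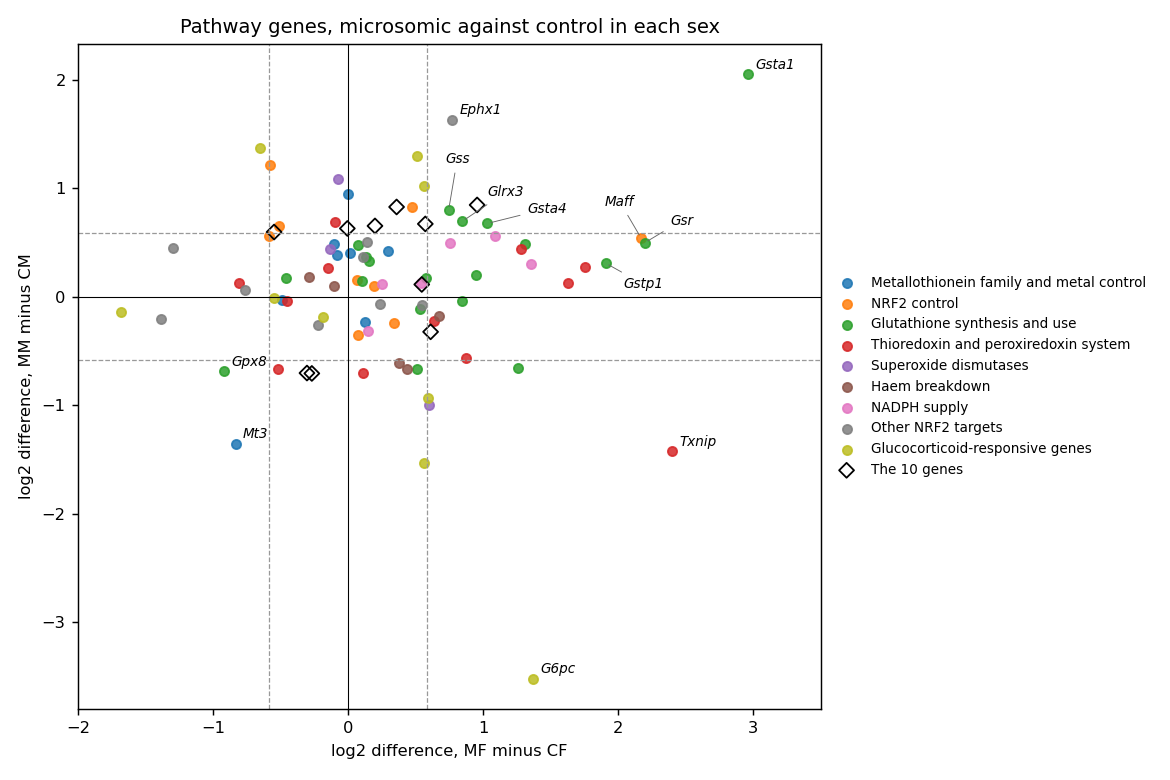
Difference between microsomic and control in females (horizontal axis) and males (vertical axis), both log2, for the 80 pathway genes coloured by list and, as open diamonds, the 10 members. Dashed lines mark 1.5-fold, and labels mark the genes past it the same way in both sexes and the 5 largest differences otherwise. Gsta1, shown in males at its lower bound, and Ephx1 are high in both sexes, and Txnip and G6pc lie to the lower right, higher in MF and lower in MM than in the controls.

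The profile of the metallothioneins over the 4 arrays, as the mean of Mt1 and Mt2 with each gene centred on its own mean, was 0.21 on CF, 0.79 on MF, -0.88 on CM and -0.13 on MM. Among 19303 genes, all well above background on every array, the nearest by root mean square distance were Ttll12 (0.021), Tnpo3 (0.029) and Mta1 (0.035). The likeness rests on 4 points per gene, which share a slide, a scan and the make-up of each liver sample.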

How the data were processed

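Total RNA of whole liver was labelled with Cy3 and hybridized to 1-colour Agilent 8x60K arrays, 1 array for each of 4 groups taken from the labels. The authors deposited the scanner tables of Agilent Feature Extraction 10.7.3.1, whose annotation is on mm9. Their processed signal is a linear intensity, made by subtracting a fitted background and dividing by a detrending factor. The deposited value table equals it in all 62976 spots, without normalization between arrays.

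From this signal the log2 was computed and that of the 75th percentile of each array (628 to 925, control spots left out) subtracted. Spots with a non-uniformity or population flag on any array were left out (1754 of 59305), spots of a probe were averaged, and a gene was read by its brightest probe. A pair of arrays was compared for genes well above background on either array. Where the other array was not, the difference is a lower bound, taken against the lowest signal that reached this level there or the own signal of the probe if higher. Signal over background limits what can be seen: 56.1 to 65.3% of spots reached it, and 19303 of 35577 genes on all 4 arrays.

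limma 3.58.1 (R 4.3.3) was fitted to these 19303 genes with condition and sex as terms and Benjamini-Hochberg adjustment. Promoters are from RefSeq (GRCm38.p6), which was used for no other coordinates. Of 151 listed pathway and marker names, 2 were matched through a synonym.

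All 10 members are named with every probe. Of the pathway lists, genes past 1.5-fold the same way in both sexes and the 5 largest differences otherwise are named, and the 3 genes nearest to the mean profile of Mt1 and Mt2. Nfe2l2, Mafg, Bach1, Cul3, Fth1, Ftl1, Slc39a14 and Mtf1 were named after their values were seen. The members and lists were chosen with earlier results of these data known. The alternatives tried were median centring, quantile normalization, normexp (offset 50) with quantile normalization, the deposited intensity without scaling, the signal before detrending, other filters on dim probes, the mean over probes, outlier spots kept, a 2-fold threshold and, for limma, other terms, an intensity trend and the threshold of the methods. Leaving out each array in limma, with condition as the term and no sex term, was added after seeing the data.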

Additional observations from a re-analysis of the deposited data

Results flagged for a closer look

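Gclc, Txnrd1 and Srxn1 stand out because the difference between M and C had the opposite sign in females and males. Gclc was at -0.007467 in females and 0.63 in males, so the female value is at 0 and the contrast rests on MM alone. Txnrd1 was at 0.6093 in females and -0.32 in males, where CF was the lowest and CM the highest of the 4 arrays. Srxn1 was at -0.5501 in females and 0.60 in males, with MF the lowest and MM the highest array. With 1 array per group the difference between the sexes was not tested, and 55.1% of all genes compared in both sexes had opposite signs.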

How the results depend on the processing

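The count of members higher in MF than CF (2) became 4 with median centring, 0 with quantile normalization, 1 with normexp and quantile normalization, 6 on the deposited values, 3 before detrending and 0 at 2-fold. The count lower (0) became 1 with quantile normalization and 1 with normexp. The count higher in MM than CM (6) became 4 with quantile normalization, 4 with normexp, 7 on the deposited values, 5 with the mean over probes, 2 before detrending and 0 at 2-fold. The count lower (2) became 0 with median centring, normexp, the deposited values, the signal before detrending and the 2-fold threshold, and 1 with the mean over probes. The count of pathway genes past 1.5-fold (34 in females and 27 in males) moved by over 1.5 times to 17 in females at 2-fold. In males it moved by as much to 42 with normexp, 53 on the deposited values, 45 before detrending and 11 at 2-fold. In males Nqo1 reversed to 0.39 with normexp and 0.43 before detrending, and Cat to -0.23 and -0.17. The causes were not tested. Other filters on dim probes and keeping outlier spots moved no member count by over 1.5 times. Of 8 male differences past 1.5-fold, 6 kept their sign under all 7 alternatives and 1, Gclm, also kept its call. Of the 2 female ones, 2 kept their sign and 0 kept their call under all 7.

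Median centring moved the median of all genes by 0.07 in females and 0.18 in males, and the deposited values by 0.38 and 0.50. The share of higher among all calls was 48.5% in females and 43.4% in males, and became 61.0% in males with median centring and 79.6% and 78.4% on the deposited values. By adjusted p limma called 0 members under every setting. At the threshold of the methods, applied to the deposited values, it called 1, Mt1, with an unadjusted p of 0.00967 and an adjusted p of 0.320. Leaving out an array also dropped the sex term and left 1 array in an arm, assumed to vary like the others, and without CM 12 genes were called, none of them a member. On the deposited values 10 genes were called. With 1 array per group, the sex term of limma already set M against C within a sex, and no further pairing was made.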
